A study of Mus musculus with 4 samples.

Results

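The cells described here were tumour cells of a mouse allograft that carried RNA of keratin 8 and E-cadherin. They were 7088 of 18559 cell barcodes in the library labelled preSC_WT, and 7088 of 56220 barcodes in all 4 libraries of the study. A barcode needed 1000 or more detected genes and no more than 15% of mitochondrial UMIs (unique molecular identifiers, each standing for 1 captured RNA molecule). It was then selected on 3 or more Krt8 UMIs, at least 1 Cdh1 UMI, no more than 1 Pvt1 UMI and no Mycn UMI. Any UMI of Ptprc, Col1a1 or Pecam1, which mark immune cells, fibroblasts and endothelium, removed a barcode. These genes chose the cells, so their levels are given as a description.

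The study used single-cell RNA sequencing, 10x Chromium 3′ chemistry, on mouse small cell lung cancer. The labels name preSC as a mouse cell line grown as an allograft, with the genotype WT in one library and CracdKO in the other, and give no other treatment, host strain or age. RPR2 and CRPR2 were tumours taken from lung whose genotypes the labels do not spell out. In this field RPR2 is known as loss of Rb1, Trp53 and Rbl2. With 1 library per group, the spread between tumours is unknown, no test was made, and all intervals are 95% and cover counting error only. In the library labelled preSC_CracdKO the targeted gene, listed under its older symbol C530008M17Rik, stood at 81.2 CPM (UMIs of a gene per 1000000 UMIs of the population), against 2.26 CPM in the Krt8-positive cells. Within the library labelled preSC_WT, the gene was also lower in the Krt8-positive cells than in cells with high Pvt1 or high Mycn RNA. Its level in the library labelled preSC_CracdKO does not bear the label out, and these values do not settle the label. Directions between the allografts are therefore directions between the libraries labelled in this way. A 3′ tag outside a deleted exon checks nothing.

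Keratins 8 and 18 pair to form the intermediate filaments of simple, single-layered epithelia, and E-cadherin, the product of Cdh1, joins neighbouring epithelial cells at adherens junctions. Claudins such as Cldn7 seal tight junctions, and Wfdc2 is a secreted protein of airway and other glandular epithelia. Small cell lung cancer is a neuroendocrine carcinoma, and its classic form keeps epithelial features, while variants with NEUROD1, POU2F3 or YAP1 differ from it.

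Krt8 and Krt18 are neighbours on chromosome 15 and their levels went together from cell to cell. Krt7, also on chromosome 15, went with Krt8 more weakly. Cldn7 lies on chromosome 11 and varied less than Krt8 and Krt18, and its correlation with Krt8 was not computed. The part of position in these levels was not tested. The sequences of Krt8, Krt18 and Cldn7 upstream of both the RefSeq and the GENCODE start are shown. Krt8 chose the cells, and Krt18 and Cldn7, which did not, separated the 2 allografts. The sequences were taken from RefSeq promoters (GRCm38.p6), which held 5 of the 6 genes Krt8, Krt18, Krt7, Cdh1, Wfdc2 and Cldn7, without Cdh1. Capitals mark the E-box core CANNTG, the motif that basic helix-loop-helix factors read. The Krt8 stretch is 110 bases, the Krt18 stretch 214 and the Cldn7 stretch 250, all written 5′ to 3′ on the strand of the gene.
Krt8 (chr15:102004483-102004592, minus strand): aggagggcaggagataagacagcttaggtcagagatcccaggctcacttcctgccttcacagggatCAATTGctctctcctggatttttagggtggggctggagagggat
Krt18 (chr15:102027966-102028179, plus strand): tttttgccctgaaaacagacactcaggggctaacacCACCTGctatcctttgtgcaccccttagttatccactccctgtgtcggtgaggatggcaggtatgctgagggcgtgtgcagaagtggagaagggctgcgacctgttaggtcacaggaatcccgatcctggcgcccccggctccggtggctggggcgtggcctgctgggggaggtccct
Cldn7 (chr11:69964529-69964778, plus strand): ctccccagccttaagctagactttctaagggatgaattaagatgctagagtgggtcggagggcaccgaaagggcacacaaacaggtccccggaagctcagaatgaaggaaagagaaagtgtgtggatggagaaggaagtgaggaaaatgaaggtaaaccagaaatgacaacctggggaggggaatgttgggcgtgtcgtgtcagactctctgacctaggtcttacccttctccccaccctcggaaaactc
CANNTG was searched on both strands and matched 1 time in the Krt8 stretch, 1 time in that of Krt18 and 0 times in that of Cldn7. Of 32851 promoter windows cut to the same length, 39.0%, 61.3% and 66.2% held at least 1 match. The AP-1 motif TGANTCA and the GC box GGGCGG were searched in the same way and had 0 matches in all 3 stretches. AP-1 matches were in 2.79%, 5.95% and 6.75% of windows of the Krt8, Krt18 and Cldn7 length. A match or its absence describes these letters only.

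The filters were passed in turn by 14099 barcodes for genes and mitochondrial share, and by 12337 of those without Ptprc, Col1a1 or Pecam1. Of these, 10058 had 3 or more Krt8 UMIs, 7631 also had Cdh1, and 7088 (57.5%, 56.6 to 58.3) met every condition. A missing Cdh1 UMI alone kept out 2331 cells, Pvt1 alone 241 and Mycn alone 281. The cells held 50540060 UMIs in all, with a median of 5690.5 per cell (1411 to 48700), 2747 detected genes and 1.78% mitochondrial UMIs. Krt8 had a median of 12 UMIs per cell and a maximum of 201, and Cdh1 a median of 2 and a maximum of 26. Scrublet called 94 of the cells (1.33%) doublets, and 34 of their barcodes also occurred in the library labelled preSC_CracdKO, 17 in RPR2 and 25 in CRPR2.

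At the threshold, 379 cells had exactly 3 Krt8 UMIs and 299 cells that met every other condition had exactly 2. The cells just inside held 1035 CPM of Krt18 and 1706 CPM of Epcam, and those just outside 868 and 1697 CPM. Wfdc2 stood at 1476 CPM inside and 1383 CPM outside. Epcam and Wfdc2 therefore stood at like levels on both sides of the limit, while Krt18 was lower outside. Both sides held a Cdh1 UMI by the rule, which bears on their epithelial RNA. The limit cut through a continuous range of Krt8.

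The label was borne out for the epithelial genes, but the same cells were also neuroendocrine. Of the markers that chose no cell, Wfdc2 stood at 1649 CPM and was seen in 98.3% of cells, and Cldn7 at 378 CPM and in 81.5%. Calca, which encodes the neuropeptide CGRP, stood at 3519 CPM and was seen in 98.0%. All 12 neuroendocrine markers were detected at 20 CPM or more, beside 23.9% of all genes, and 11 of them at 100 CPM or more. On a wider list of 25 neuroendocrine genes 19 reached 20 CPM and 4 were under 1 CPM.

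Background was measured in 1067 barcodes of the same library with 2 or more Ptprc UMIs, which should lack these genes. They can hold free RNA or tumour cell doublets, and Scrublet called 94 of them doublets (8.81%). Their median depth was 1647 UMIs, so both groups were thinned to 1000 UMIs per cell, which left out 203 Ptprc-positive barcodes and none of the tumour cells. A Krt18 UMI was then found in 79.1% (78.1 to 80.0) of the Krt8-positive cells and in 12.3% (10.2 to 14.6) of the Ptprc-positive ones. Wfdc2 gave 74.1% and 12.7%, Epcam 78.7% and 13.2%, and Calca 84.6% and 17.2%. Each of these shares was higher in the Krt8-positive cells beyond the intervals. The parts of free RNA and of doublets in the Ptprc-positive shares were not told apart. For Neurod1 the shares were 0.127% and 0.116%, the latter 1 of 864 cells (0.00293 to 0.643). For Pou2f3 they were 0.240% and 0.231%, the latter 2 of 864 (0.0280 to 0.834). These backgrounds lay below 3 counts, and the shares of the Krt8-positive cells were not told apart from them. Yap1 gave 0.155%, and 0 of 864 Ptprc-positive cells, which allows a share of up to 0.347% (3 counts of 864).

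**Figure D1:**
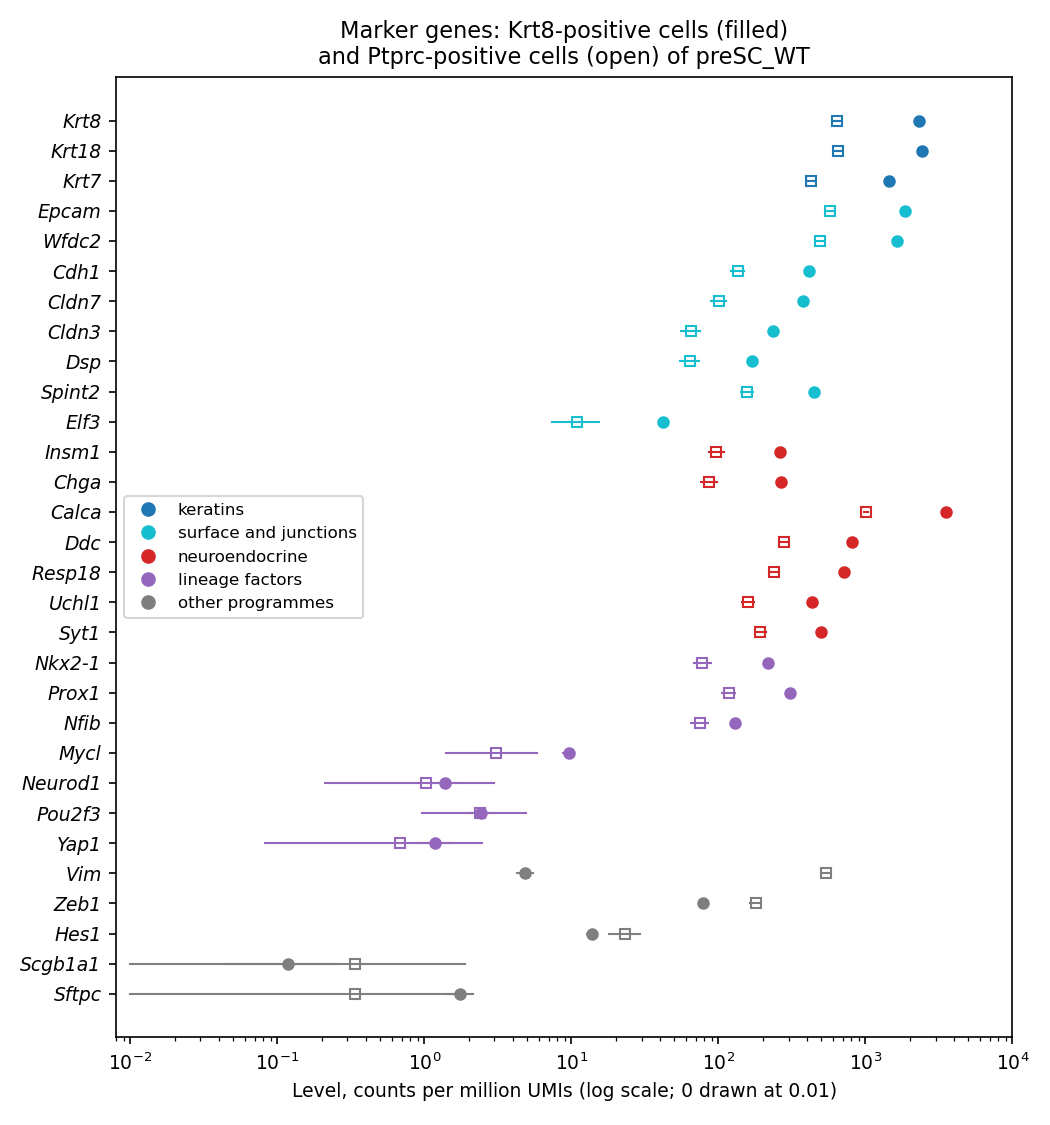
Levels of marker genes in CPM on a log axis, in the 7088 Krt8-positive cells (filled circles) and in 1067 Ptprc-positive cells of the same library (open squares), with 95% Poisson intervals as lines. Keratin, junction and neuroendocrine genes lie to the right of their background, while Neurod1, Pou2f3 and Yap1 lie near 1 to 2 CPM in both groups.

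Markers of immune and endothelial cells were low, in cells from which the rule had removed any with a Ptprc, Col1a1 or Pecam1 UMI. Low sums were thus in part set by the rule and are a description. Col1a1 and Pecam1, on the fibroblast and endothelial lists, were at 0 by the rule. Summed over each list, T cell markers came to 7.28 CPM in the Krt8-positive cells and 1259 CPM in the Ptprc-positive ones, and macrophage and monocyte markers to 28.8 and 5127 CPM. Endothelial markers summed to 8.79 CPM and B cell markers to 5.76 CPM. The fibroblast list summed to 72.2 CPM, of which Dcn alone, encoding the matrix protein decorin, gave 68.5 CPM. It was seen in 27.4% of the Krt8-positive cells, at a median depth of 5690.5 UMIs, and in 4.40% of the Ptprc-positive ones, at 1647. The keratinocyte list summed to 102 CPM against 30.3 in the Ptprc-positive cells, of which Lor, the gene of the cornified-envelope protein loricrin, gave 64.9 CPM. Haemoglobin and other erythroid genes summed to 249 CPM but lay in few cells, since Hbb-bs was seen in 3.05% of them.

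Keratin RNA came from only 3 of 6 simple-epithelial keratins. Krt8 (chromosome 15, 101996698 to 102004482, mm10) stood at 2314 CPM, Krt18 (102028180 to 102032027) at 2414 CPM and Krt7 (101411043 to 101430313), the keratin of glandular and ductal epithelium, at 1439 CPM. Krt19, Krt20 and Krt23 had no UMI among the 50540060 counted, which bounds each at 0.0730 CPM (upper end of the Poisson interval). Basal and stratified keratins were rare, with Krt14 at 16.996 CPM in 0.169% of cells and Krt5 at 7.40 CPM in 0.0988%. Trp63, the basal-cell factor, stood at 0.257 CPM. Krtap17-1, a keratin-associated protein gene of hair, was counted at 470 CPM in 65.6% of cells.

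RNA of both tight junction and desmosome genes was present. A level of 20 CPM was reached by 7421 of the 31053 genes in the table (23.9%), which is the share to set beside the counts of each list. Of 20 tight junction genes 11 reached 20 CPM and 6 were under 1 CPM, with Cldn7 at 378, Cldn3 at 235 and Ocln, encoding occludin, at 66.5 CPM. Of 10 desmosome genes 7 did so, with the plaque protein Dsp at 169, Jup at 147 and the cadherin Dsg2 at 104 CPM. Alongside Cdh1 at 416 CPM, N-cadherin (Cdh2) was counted at 102 CPM, so the 2 cadherins were present in the same population.

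Of 22 genes of epithelial surface and polarity, 13 reached 20 CPM, beside 23.9% of all genes. Epcam, the epithelial adhesion molecule, stood at 1869 CPM, and Spint2, an inhibitor of surface proteases, at 444 CPM. The splicing regulator Esrp1 stood at 83.5 CPM, and the epithelial transcription factors Klf5, Elf3 and Ehf at 134, 41.9 and 38.9 CPM.

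Neuroendocrine RNA was made of secretory and synaptic genes together with their regulators. Insm1, a zinc-finger factor of neuroendocrine cells, stood at 262 CPM, and Chga, encoding the granule protein chromogranin A, at 266 CPM. Ddc, the enzyme that makes dopamine and serotonin, stood at 815 CPM, Resp18 at 716 CPM and the prohormone convertase Pcsk1 at 520 CPM. Stmn2 and Dlk1, both on the list of neuroendocrine genes, were at 0.0791 and 0.0198 CPM, and Grp, the gene of gastrin-releasing peptide, at 2.97 CPM. In all, 19 of 25 listed neuroendocrine genes reached 20 CPM, beside 23.9% of all genes, and 4 were under 1 CPM.

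Genes of the factors that name variant subtypes of the disease were low. Neurod1 stood at 1.39 CPM, Pou2f3 at 2.41 and Yap1 at 1.19 CPM. The lung factor Nkx2-1 stood at 217 CPM, Prox1 at 307, Foxa1 at 154 and Nfib at 129 CPM. Of the Myc family, Myc was counted at 20.3 CPM and Mycl at 9.60 CPM, and Mycn was at 0 by the rule. Of 16 genes of airway secretory cells 1 reached 20 CPM, beside 23.9% of all genes. It was Aldh1a1, a retinaldehyde dehydrogenase, at 77.8 CPM. A further 14 were under 1 CPM, with Scgb1a1 at 0.119 CPM. The share of all genes under 1 CPM was not counted, and 9418 of 31053 genes had no UMI. Sftpc of alveolar type 2 cells and Foxj1 of ciliated cells were at 1.74 and 1.46 CPM.

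Mesenchymal and Notch genes, which mark non-neuroendocrine cells of this tumour, were uneven. Of 20 mesenchymal genes 7 reached 20 CPM, beside 23.9% of all genes, and 8 were under 1 CPM. The highest were the integrin subunit gene Itgb1 at 209 CPM, Anxa1, encoding annexin A1, at 202 and Cdh2 at 102 CPM. Vim, encoding vimentin, stood at 4.83 CPM against 538 CPM in the Ptprc-positive cells, and Rest, a repressor of neuronal genes, at 0.237 against 26.2 CPM. Of 18 Notch and Hes genes 4 reached 20 CPM, a share near the 23.9% of all genes and no result about the list. Hes1 stood at 13.85 CPM and Notch1 at 0.277. Hes6 and the inhibitory ligand Dll3 were higher, at 241 and 61.0 CPM, and Zeb1, a repressor of E-cadherin, was counted at 79.0 CPM.

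The cells carried RNA of several growth-factor receptors. Egfr stood at 109 CPM and was seen in 45.4% of cells, Ret at 50.6 CPM, Kit at 38.5 and Met at 38.3 CPM. Erbb2 had 0.0198 CPM and Fgfr1 0.336 CPM. Igfbp5, which binds insulin-like growth factors, stood at 1027 CPM. Rb1 and Trp53 RNA was counted at 192 and 61.7 CPM, Cdkn2a, an inhibitor of the cell cycle, at 367 CPM and the p53 target Cdkn1a at 635 CPM. Such 3′ counts do not show whether Rb1 or Trp53 was intact.

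Antigen presentation genes were uneven. H2-D1 and H2-K1, heavy chains of MHC class I, stood at 497 and 298 CPM, but B2m, the light chain they need at the surface, at 49.9 CPM and in 22.5% of cells. The same B2m reached 973 CPM in the Ptprc-positive cells. Cd274, which encodes PD-L1, stood at 8.75 CPM, while Cd47, the ligand that restrains macrophages, stood at 612 CPM.

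Immediate-early and heat-shock genes were abundant. The 20 genes of the dissociation and stress list, which respond to enzymatic digestion among other stimuli, summed to 24824 CPM. Jun stood at 5202 CPM, Fos at 3079 and Atf3 at 1659 CPM. The protocol digested the tissue with enzymes, and the part of that step in these levels was not tested.

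Cycling cells were set apart by Mki67 and Top2a, which are expressed in dividing cells. At least 1 UMI of either was present in 3828 of the cells (54.0%, 52.8 to 55.2), and 3260 had neither. Depth bears on this share, because cells with a UMI had a median of 7452.5 UMIs and the others 4504.5. In 6523 cells thinned to 3000 UMIs, after 565 shallower cells were left out, the share was 43.8% (42.5 to 45.0). It was 35.9% at 2000 UMIs and 52.9% at 4000, so it is a count of cells with a captured molecule and not of dividing cells. In Ptprc-positive cells thinned to 1000 UMIs, Top2a was found in 7.64% and Mki67 in 5.32%, against 19.4% and 13.8% of the Krt8-positive cells.

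Cells with Mki67 or Top2a carried the whole mitotic programme at higher levels. Genes were called higher or lower past 2-fold in CPM + 1, provided that the higher population reached 20 CPM. Of 7652 genes with that level, 249 (3.25%) were higher and 2 (0.0261%) lower. All 26 G2 and M phase genes were higher (Mki67 and Top2a by the rule), with a median log2 ratio of 4.32 beside 0.03 over all genes measured. Ube2c, which drives mitotic exit, stood at 536 against 13.9 CPM (ratio 38.5, 33.8 to 44.0). Birc5, encoding survivin, stood at 230 against 5.08 CPM (ratio 45.2, 36.5 to 56.7). Esco2, a cohesin acetyltransferase outside the cycle lists, had 63.9 against 0.837 CPM.

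S phase genes differed in part. Of 20 tested, 7 were higher, beside 3.25% of all genes, among them Rrm1, Rrm2, Tyms, Cdc6, Uhrf1 and Clspn. Rrm2, a subunit of ribonucleotide reductase, stood at 82.1 against 6.93 CPM (ratio 11.8, 9.83 to 14.4), whereas the helicase subunit Mcm6 stood at 202 against 197 CPM (ratio 1.03, 0.985 to 1.07). In the retinoblastoma and E2f list 5 of 16 tested genes were higher. These were the E2f factors E2f2, E2f7 and E2f8 and the S phase cyclins Ccne1 and Ccne2, with Ccne1 at 33.4 against 9.15 CPM. Ezh2, the histone methyltransferase of Polycomb, stood at 162 against 78.6 CPM, and Mxd3, a partner of Max, at 44.2 against 2.69 CPM.

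None of 3 tested keratins, 11 tight junction, 7 desmosome or 19 neuroendocrine genes passed 2-fold. With 3.25% of all genes higher and 0.0261% lower, that is near the background and is no result about these lists. Krt8 stood at 2063 CPM in cells with Mki67 or Top2a and 2822 CPM in cells without, Krt18 at 2187 and 2873, and Calca at 3156 and 4253 CPM. Epcam went the other way, at 1995 and 1614 CPM. The rule asked for 3 raw Krt8 UMIs at any depth, so the deeper cells with Mki67 or Top2a could enter at a lower Krt8 share. The part of this in the keratin levels was not tested. Wfdc2 stood at 1677 and 1593 CPM, and Nkx2-1 at 210 and 232 CPM. The epithelial factor Ehf was the only one of 15 tested surface and polarity genes past 2-fold, at 47.5 against 21.6 CPM (ratio 2.20, 1.96 to 2.47). The 2 lower genes were Obp2a, an odorant-binding protein gene, at 11.8 against 65.6 CPM, and Igkc, the immunoglobulin kappa constant gene of B cells, at 5.44 against 25.3 CPM. Igkc was seen in 11.1% of thinned Ptprc-positive cells and 0.466% of thinned Krt8-positive ones, and the part of free RNA in its difference was not tested. Sprr1a, a gene of the cornified envelope, stood at 65.2 against 119 CPM, and Hspa1b at 71.2 against 113 CPM, neither past the limit.

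**Figure D2:**
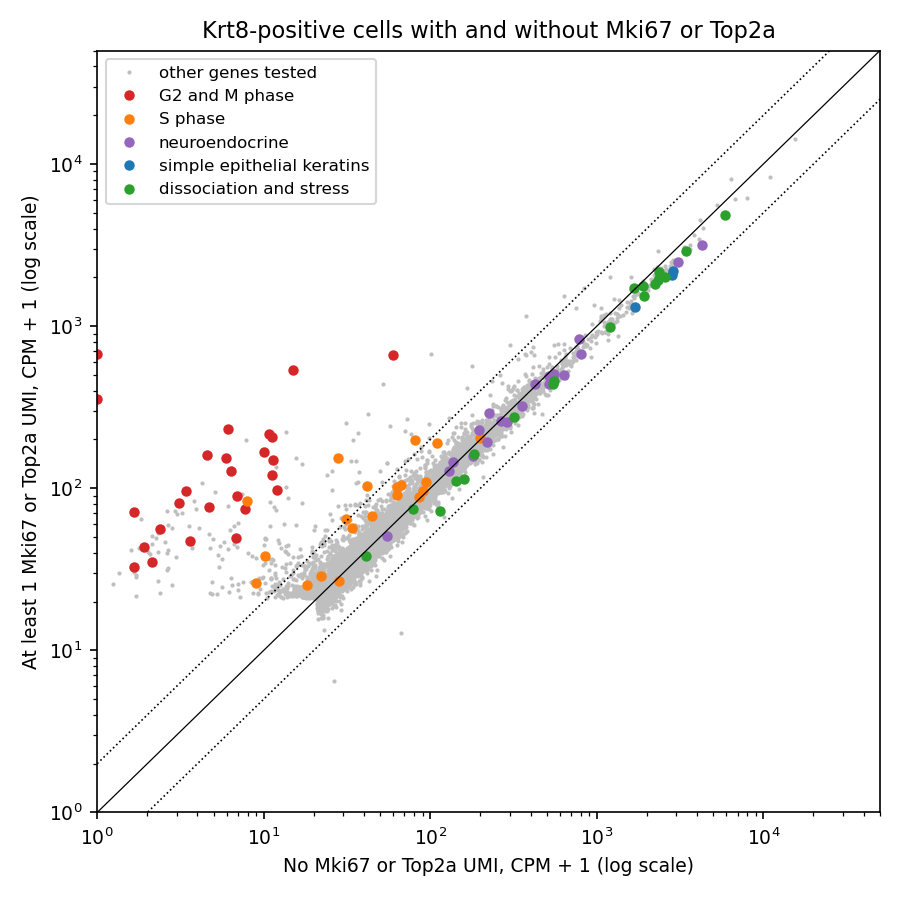
Levels of 7652 genes in the 3828 Krt8-positive cells with a Mki67 or Top2a UMI (vertical) and the 3260 without (horizontal), as CPM + 1 on log axes. The solid line marks equal levels and the dotted lines a ratio of 2; G2 and M phase genes (red) lie above the upper line and keratin and neuroendocrine genes lie between the lines.

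Variation between cells was measured in the 6523 cells thinned to 3000 UMIs, as each gene's variance over mean divided by the median of genes with a like mean. Over 5542 genes the 3 highest were the globin genes Hbb-bs (586), Hba-a1 (145) and Hbb-bt (140), seen in 1.502%, 0.506% and 0.414% of cells. Next came Apoe, the lipid carrier (17.9), the heat-shock gene Hspb1 (7.84) and the histone gene Hist1h2ap (6.30). Calca followed at 6.21, while Chga stood at 1.11. Krt18 stood at 3.66 and Krt8, whose range the rule had cut, at 2.47. Cldn7 (1.12) ranked 588 and Krt7 (1.05) ranked 1065. Cdh1 (0.913) ranked 5450, near the end of the list, and the rule had cut its range too.

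From cell to cell, Krt8 went with Krt18 and more weakly with other genes. Over the 6523 thinned cells, which share 1 library and 1 depth, Pearson's r was 0.57 for Krt8 with Krt18, 0.22 with Krt7, 0.30 with the stress factor Atf3 and 0.05 with Wfdc2. The cells were then ordered by thinned Krt8 into 4 groups, of 1745 cells with 0 to 3 UMIs, 2017 with 4 to 6, 1134 with 7 to 9 and 1627 with 10 to 66. Krt18 stood at 1222, 1822, 2628 and 4594 CPM in these groups. Egr3, an immediate-early factor, stood at 201, 297, 459 and 734 CPM, Palld, an actin-bundling protein gene, at 84.1, 109, 186 and 341 CPM, and Sprr1a at 26.7, 54.5, 78.5 and 202 CPM. Mki67 and Top2a went the other way, Top2a at 624, 377, 283 and 137 CPM. Nkx2-1 stayed between 199 and 239 CPM. Stress genes were not alike in this order. Atf3, Jun and Egr1 rose through the groups, Atf3 from 1061 to 2445 CPM. Fos stood at 2641, 3288, 3478 and 3056 CPM, Btg2 at 1808, 2219, 2445 and 2418, and Hspa1a at 145, 152, 124 and 82.6 CPM. Krt8 takes part of each cell's UMIs, so these levels share that total. The rule asked for 3 raw Krt8 UMIs at any depth, and cells with Mki67 or Top2a were deeper (medians 7452.5 and 4504.5 UMIs). Deep cells could thus enter with a lower share of Krt8, and the part of this in the Mki67 and Top2a levels was not tested.

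Leiden clustering at resolution 0.5 split the cells into 7 sub-clusters, which describe the range of states and are not tested types. Sub-cluster 1 (2077 cells) was led by heat-shock genes, with Hspa1a at 303 CPM against 62.2 in the other cells and Dnajb1 at 1005 against 279 CPM. Sub-cluster 2 (1581 cells) had the most keratin RNA, Krt8 at 4134 and Krt18 at 4300 CPM. It was led by Hsd11b1, Sprr1a, Sgms2, Enpp1 and Palld, and Hbegf, a ligand of EGFR, stood at 168 against 62.9 CPM. Sub-cluster 3 (1118 cells) had the lowest Krt18, at 1192 CPM, Fos, at 1502, and Atf3, at 447 CPM, of the 7, and was led by globin genes. Its Krt7, at 1680.0 CPM, and Hspa1a, at 102 CPM, were each second to 1 other sub-cluster.

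The remaining sub-clusters followed the cell cycle or stress. Sub-cluster 4 (1076 cells) was mitotic, with Mki67 or Top2a in 99.7% of cells and Aurkb at 179 against 5.73 CPM. Its median depth of 9703.5 UMIs was the greatest of the 7, and Calca stood at 2301 CPM, against 4032 in sub-cluster 1. Sub-cluster 5 (688 cells) was led by genes of DNA replication onset, Cdc6 at 69.2 against 12.7 and Ccne1 at 88.4 against 16.95 CPM. Sub-cluster 6 (540 cells) held Hist1h2bc at 1501 against 220 CPM, Cenpa at 409 against 83.9 and Epcam at 3508 CPM, together with Hbb-bs at 662 CPM. Sub-cluster 7 was 8 cells in which Ddit3, a factor of the unfolded protein response, stood at 6381 against 68.9 CPM, and Calca at 877 CPM.

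**Figure D3:**
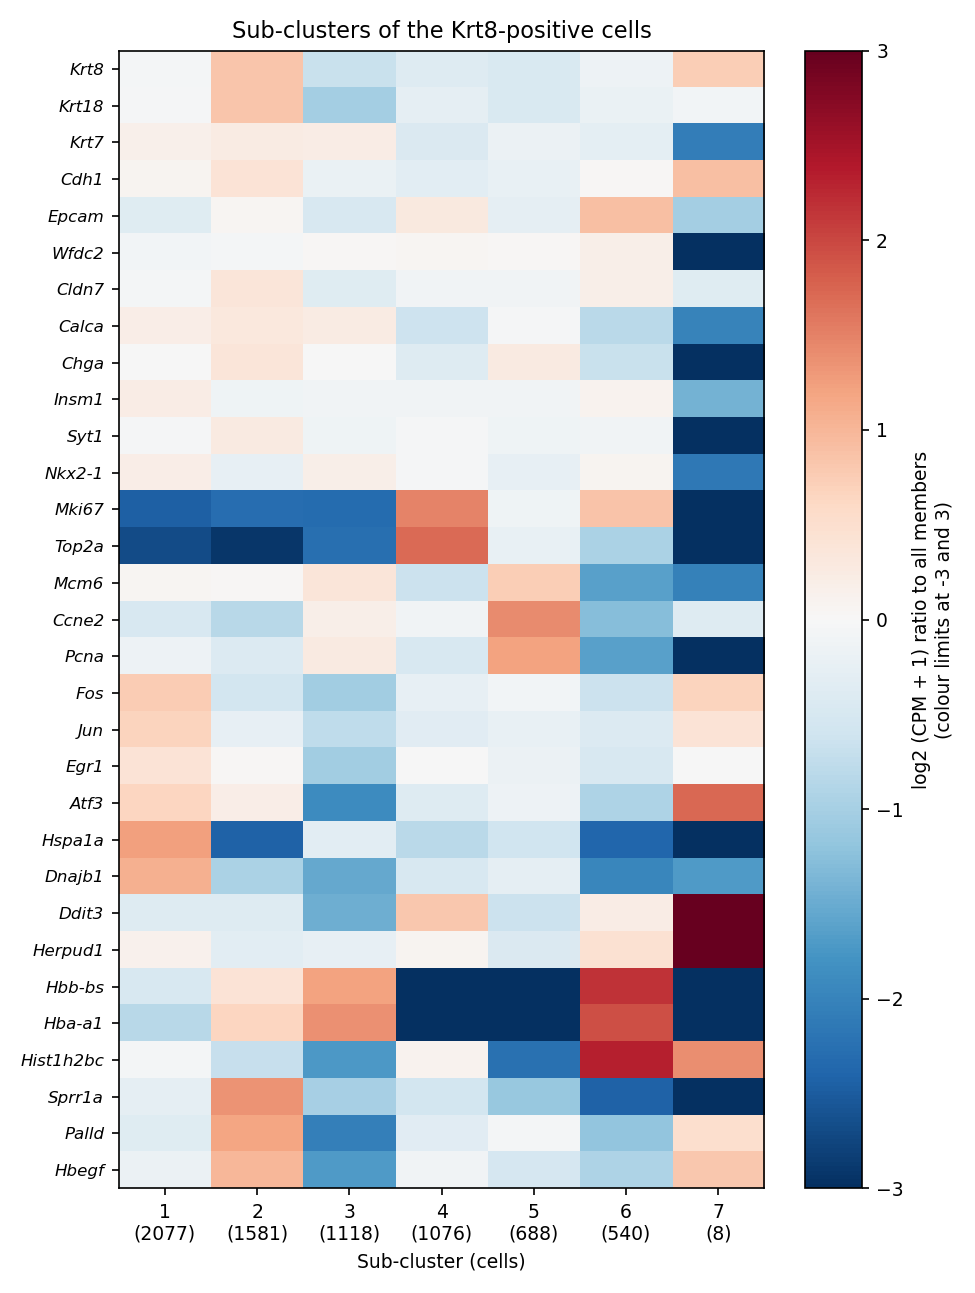
Log2 ratio of CPM + 1 in each of 7 sub-clusters to that of all 7088 Krt8-positive cells, colour limits at -3 and 3, with the number of cells under each column. Krt8 and Krt18 are highest among the large sub-clusters in sub-cluster 2, Mki67 and Top2a in sub-cluster 4, and the epithelial and neuroendocrine genes in the upper rows differ less between sub-clusters 1 to 6.

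A small population of the same library carried Pvt1, the long non-coding RNA beside Myc, at 5 or more UMIs without Mycn. It held 115 cells with 984777 UMIs and a median of 6459. Krt8 and Cdh1 were not required of it, so those 2 genes and Pvt1 are a description. Of 8073 genes, 616 (7.63%) were higher and 404 (5.0%) lower in the Krt8-positive cells. With each cell counted equally, in place of summed UMIs, the counts were 1010 and 621. With mitochondrial and ribosomal protein genes left out of the total they were 550.0 and 533, and the share of higher genes among those called moved from 60.4% to 50.8%.

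Against these Pvt1-high cells, some epithelial, MHC class I and immediate-early genes were higher in the Krt8-positive cells. Of the epithelial lists, 4 of 13 surface and polarity, 4 of 11 tight junction and 2 of 7 desmosome genes were higher and none lower. Wfdc2 stood at 1649 against 409 CPM (ratio 4.03, 3.65 to 4.46), Epcam at 1869 against 737 CPM and Krt18 at 2414 against 946 CPM. Krt8 and Cdh1 UMIs were required of the Krt8-positive cells only, which can raise genes that go with them, such as Krt18. The part of this choice in the epithelial differences was not tested. Cldn7 did not pass 2-fold, at 378 against 331 CPM (ratio 1.14, 1.02 to 1.28), nor did Chga, at 266 against 257 CPM. Of 12 MHC class I genes tested 7 were higher, among them H2-K1 at 298 against 120 CPM, while B2m stood at 49.9 against 49.8 CPM. Of 19 stress genes 9 were higher, such as Fos at 3079 against 1083 CPM. The MHC class I and stress shares lay above the 7.63% of all genes, whereas 2 of 19 neuroendocrine genes were higher, a share near that background. With each cell counted equally, 7 of 12 MHC class I, 13 of 19 stress and 6 of 19 neuroendocrine genes were higher, beside 1010 genes in all. Without mitochondrial and ribosomal protein genes in the total these were 5, 8 and 2, beside 550. Desmosome genes were 3 of 7 and 1 of 7, respectively. The neuroendocrine and desmosome counts thus moved with the scaling.

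The largest ratios lay on the other side, in genes named for their rank and not as a group. Of 10 genes tested on the list of neural and developmental factors, 1 was higher and 2 were lower, beside 7.63% and 5.0% of all genes. Rtn1, a reticulon of neuroendocrine cells, stood at 3.54 against 813 CPM (ratio 0.00435, 0.00368 to 0.00513). The neuronal factor Myt1l stood at 0.890 against 144 CPM and the glutamate receptor subunit Grin2b at 0.475 against 109 CPM. Myc and its neighbour Fam84b were lower in the Krt8-positive cells as well, at 20.3 against 125 CPM and 21.98 against 726 CPM. Of 19 Myc target genes of ribosome assembly and metabolism 6 were lower, including Npm1 at 451 against 1677 and Srm at 20.9 against 175 CPM, and none was higher; under either other scaling 9 were lower. The list's median log2 ratio was -0.91 beside 0.05 over all genes. C530008M17Rik stood at 2.26 against 88.3 CPM (114 and 87 UMIs).

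Only 22 cells carried 3 or more Mycn UMIs, fewer than a comparison of cell types would need, and they held 249272 UMIs. Their values describe those cells. Of 8431 genes 1318 (15.6%) were higher and 965 (11.4%) lower in the Krt8-positive cells. All 13 tested surface and polarity genes were higher, Epcam at 1869 against 309 CPM and Wfdc2 at 1649 against 209 CPM, as were 9 of 11 tight junction genes. Krt8 and Cdh1 were not required of the 22 cells, and the part of that choice in the epithelial differences was not tested. All 26 G2 and M phase genes were lower, with Cdk1 at 141 against 365 CPM. The 22 cells were deeper, with a median of 10310.5 UMIs against 5690.5 in the Krt8-positive cells. Cells with Mki67 or Top2a were also the deeper ones among the Krt8-positive cells, and the part of depth in this difference was not tested. Calca stood at 3519 against 501 CPM. Nbas and Ddx1, which neighbour Mycn, stood at 65.0 against 1392 CPM and 110 against 1440 CPM, and the axon-guidance receptor gene Dcc at 4.29 against 317 CPM. Egfr had no UMI in the 22 cells, so that its level was at least 9.07-fold higher in the Krt8-positive cells, with a floor of 3 counts over the group.

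**Figure D4:**
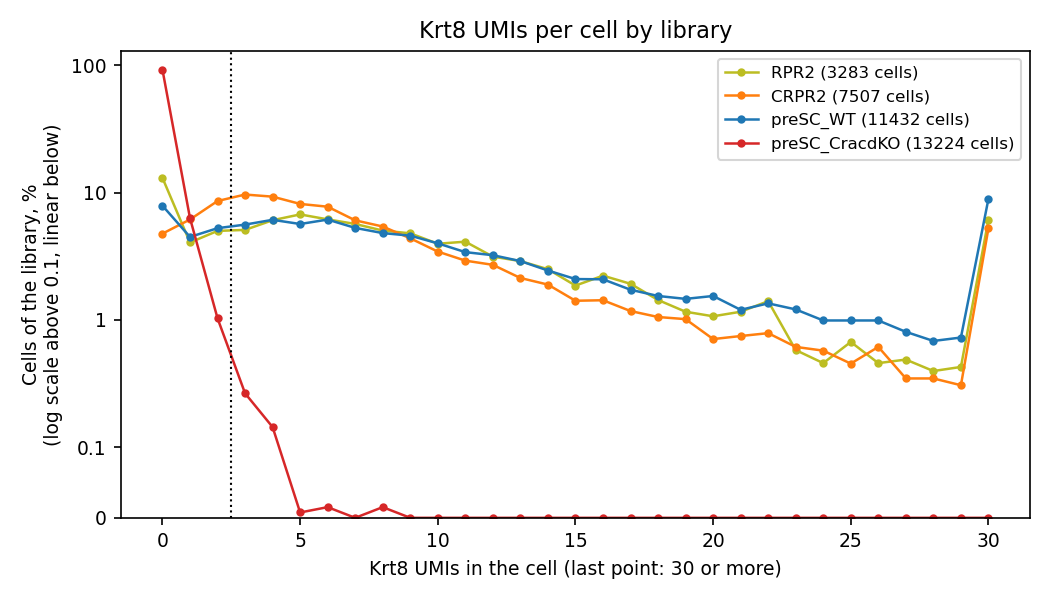
Share of cells by Krt8 UMIs in each library, among cells that met every condition except those on Krt8 and Cdh1, with 30 or more in the last point. The vertical axis is logarithmic above 0.1% and linear below; the dotted line marks the limit of 3 UMIs, which 82.4% of preSC_WT and 0.446% of preSC_CracdKO cells reached.

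Krt8-positive cells were almost absent from the other allograft. The full rule found 1 cell among 14961 lineage-free cells of the library labelled preSC_CracdKO. Without the Krt8 and Cdh1 conditions 13224 cells remained there, and 59 of them (0.446%, 0.340 to 0.575) had 3 or more Krt8 UMIs, against 9419 of 11432 (82.4%, 81.7 to 83.1) in the library labelled preSC_WT. No Krt8 UMI was found in 92.2% of these cells and in 7.88%, respectively. Median depths were 5925 and 4866 UMIs. With Krt8 and Cdh1 left out of the choice on both sides, Krt8 stood at 15.0 CPM and 2034 CPM, and Cdh1 at 0.932 and 321 CPM.

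The 13224 cells were set against the Krt8-positive cells for the remaining genes, a comparison chosen after the rule was found to give a single cell. Of 8139 genes 1258 (15.5%) were higher and 606 (7.45%) lower in the Krt8-positive cells. When mitochondrial and ribosomal protein genes were left out of the total, the counts were 1108 and 857, the share of higher genes moved from 67.5% to 56.4%, and the median log2 ratio of all genes from 0.14 to -0.02. Ribosomal protein genes took 9.62% of UMIs in the Krt8-positive cells and 17.7% in the others.

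The epithelial difference reached past the genes of the rule. Wfdc2 stood at 1649 against 1.90 CPM (ratio 869, 747 to 1018) and Cldn7 at 378 against 0.250 CPM (ratio 1511, 998 to 2412). Epcam stood at 1869 against 37.1 CPM, Dsp at 169 against 5.40 and Esrp1 at 83.5 against 3.06 CPM. In all, 7 of 7 desmosome genes, 10 of 11 tight junction genes and 11 of 13 surface and polarity genes were higher, shares far above the 15.5% of all genes, and none was lower. Their median log2 ratios were 2.93, 1.95 and 4.22. The same numbers of genes of each list were higher when Krt8 and Cdh1 were left out of the choice on both sides, where 1226 of 8146 genes (15.1%) were higher and 572 (7.02%) lower. Krt18 and Krt7 differed less than Krt8, at 2414 against 141 CPM and 1439 against 252 CPM. Tjp1 and Elf3 did not pass 2-fold, at 80.3 against 84.6 CPM and 41.9 against 24.9 CPM.

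The neuroendocrine genes were present on both sides. Of 20 tested, 8 were higher in the Krt8-positive cells and 1 was lower, beside 15.5% and 7.45% of all genes. Calca stood at 3519 against 654 CPM and Insm1 at 262 against 105 CPM, while Stmn2, a microtubule regulator of neurons, stood at 0.0791 against 175 CPM. Nkx2-1, at 217 against 241 CPM, Syt1, at 500 against 706, and Uchl1, at 434 against 737 CPM, did not pass 2-fold. Mki67 stood at 236 against 250 CPM and Top2a at 451 against 410 CPM, and none of 26 G2 and M phase genes passed.

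Single developmental factors, many stress genes and some metabolic genes also differed. Over all genes tested 15.5% were higher and 7.45% lower, which are the shares to set beside the counts in this paragraph. Of 12 genes on the list of neural and developmental factors 2 were higher, a share near that of all genes, and 3 were lower. The higher ones were Six4 at 104 against 33.8 CPM and Pou4f1 at 40.03 against 15.0 CPM. Isl1, a homeobox factor, had 0 UMIs in the Krt8-positive cells and stood at 94.3 CPM in the others, which was at least 1588-fold higher there with a floor of 3 counts over the population. Eya1 stood at 0.0989 against 117 CPM, Sox2 at 3.80 against 122, Nrg1, a ligand of ERBB receptors, at 1.56 against 293 and Nfib at 129 against 492 CPM. Of 19 stress genes 17 were higher, Fos at 3079 against 56.8 and Atf3 at 1659 against 16.3 CPM. Digestion stress was not tested as a source of these differences. Of 12 MHC class I genes 9 were higher, H2-D1 at 497 against 70.0 and B2m at 49.9 against 7.19 CPM. Of 22 hypoxia and glycolysis genes 10 were lower, Pgk1 at 141 against 815 and Gapdh at 1227 against 3272 CPM, and none was higher, while 0 of 20 oxidative phosphorylation genes passed in either direction. Egfr stood at 109 against 4.32 CPM and Actg1, a cytoplasmic actin, at 6303 against 1430 CPM.

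**Figure D5:**
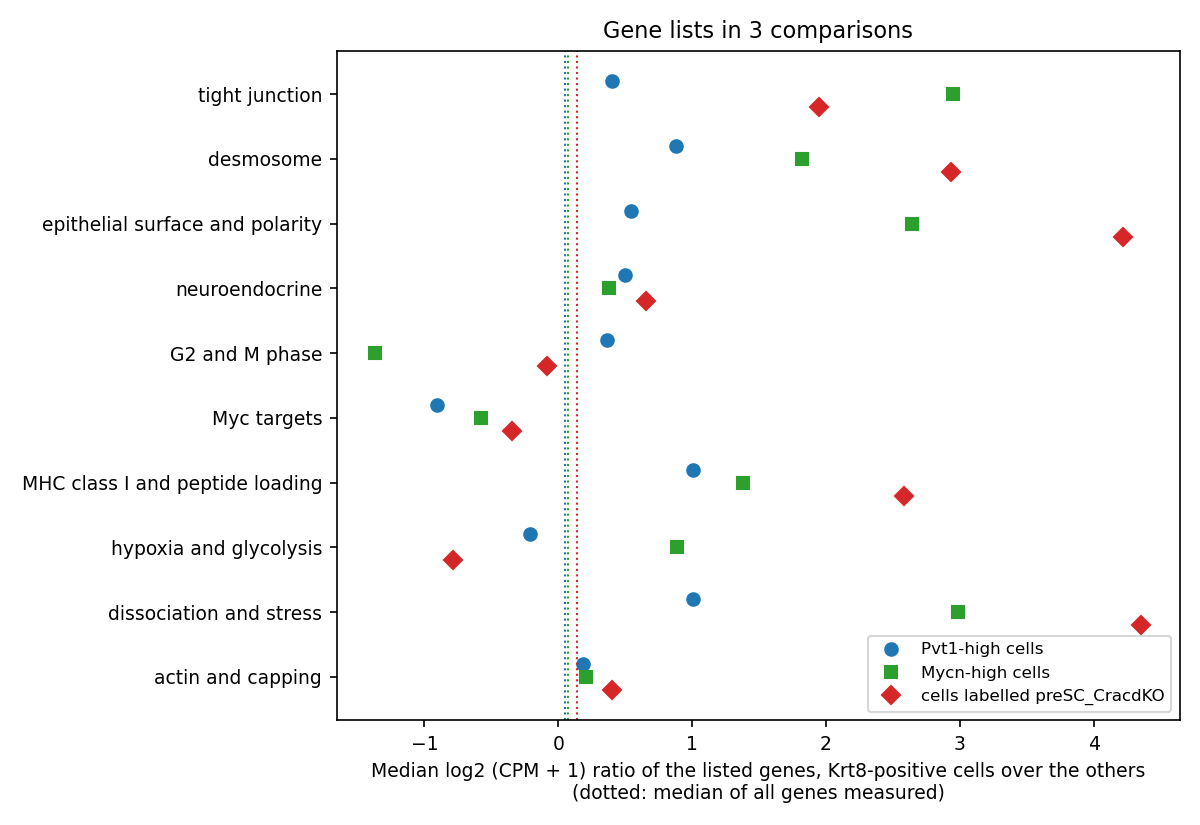
Median log2 ratio of CPM + 1 over the genes of each list, Krt8-positive cells over Pvt1-high cells (circles), Mycn-high cells (squares) and cells of the library labelled preSC_CracdKO (diamonds), with the median of all genes measured as dotted lines at 0.05, 0.07 and 0.14. The 3 comparisons share the Krt8-positive cells, which alone were chosen on Krt8 and Cdh1 UMIs. Junction and surface lists lie to the right in all 3, and the Myc targets to the left.

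The lung tumours held cells of the same rule, 2033 of 3375 lineage-free cells in RPR2 (60.2%, 58.6 to 61.9) and 4116 of 7705 in CRPR2 (53.4%, 52.3 to 54.5). The rule asks for epithelial RNA, and which of these lung cells were tumour cells was not tested. Among cells chosen without the Krt8 and Cdh1 conditions, 3 or more Krt8 UMIs were found in 77.9% in RPR2 and 80.5% in CRPR2, beside 82.4% in the library labelled preSC_WT. Median depth over all barcodes was 2873 UMIs in RPR2, 3300.5 in CRPR2 and 4023 in the library labelled preSC_WT, and the part of depth in these shares was not tested.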

How the data were processed

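Single-cell RNA was sequenced in 4 mouse libraries, 1 per group, and the deposited matrices hold raw UMI counts per gene and cell barcode, per the file headers. Cell Ranger 5.0.0 made the allograft matrices and 6.1.2 the lung matrices, per the file headers. The submitters' processing notes name mm10, Cell Ranger 6.1.2, Scanpy 1.8.2 and Seurat 1.8.2, and the annotation release is not given in the sources used here.

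Cells were chosen by the rule given at the start of the report. UMIs of each gene were added up within a population and scaled to its total (CPM). Ratios used a pseudocount of 1 CPM, and a gene counted as different at 2-fold with at least 20 CPM in the higher population. List medians took genes at 5 CPM or more. With 1 library per group no test was made. Intervals of levels are exact Poisson, of shares Clopper-Pearson and of ratios conditional binomial, all covering counting error only. Depth was matched by thinning UMIs. Sub-clusters came from scanpy 1.11.5 (2000 variable genes, 50 components, 15 neighbours, Leiden). Scrublet was run on 18468 barcodes of the library labelled preSC_WT and called 456 (2.47%), which stayed in except in an alternative. The calculation was tested on simulated data. Total UMIs were 42592323 to 110576113 per library.

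The cells and the gene lists were chosen with earlier results of these data known. Named genes were the markers and lists, the 15 highest and 15 lowest ratios at 50 CPM or more in comparisons of populations, the 10 highest and 10 lowest of the Mki67 and Top2a split with the 10 highest outside the cycle lists, the 15 most variable and 15 most abundant genes, and the 8 leading genes of each sub-cluster. Igkc was chosen after its values were seen, as were the Ptprc-positive cells as a measure of free RNA and the cells of the library labelled preSC_CracdKO without the Krt8 and Cdh1 conditions. Alternatives changed the thresholds of the rule, the scaling, the pseudocount, the fold, the level minimum, doublets, thinning depth and clustering resolution. Some genes are not reported here.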

Additional observations from a re-analysis of the deposited data

How the results depend on the processing

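Of 97 counts and shares recomputed under the alternatives, 79 stayed within 1.5 times the value reported, or within its interval, and 18 did not. A fold of 1.5 in place of 2 gave 2165 higher and 1971 lower genes against the Mycn-high cells, 1582 and 1167 against the Pvt1-high cells, 487 and 19 in the Mki67 and Top2a split, and 2234 and 1260 against the library labelled preSC_CracdKO. A minimum of 10 CPM gave 618 lower genes against the Pvt1-high cells and 5 in the split. Counting each cell equally gave 1010 higher and 621 lower genes against the Pvt1-high cells. In the split, leaving out doublets gave 1 lower gene and requiring both Mki67 and Top2a gave 5. The share of cells with Mki67 or Top2a was 35.9% at 2000 UMIs, 52.9% at 4000 and 54.0% without thinning, against 43.8% at 3000. Leiden resolution 0.3 gave 4 sub-clusters.

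Of 1268 recomputed ratios of named genes 3 changed direction. Hbb-bs in the split went from a log2 ratio of -0.81 to 0.018 with a minimum of 2000 genes and to 0.56 without Pvt1 UMIs, and Pde6a against the Mycn-high cells from -5.39 to 0.54 with 5 or more Mycn UMIs. The cause was not tested. No paired analysis was possible because each group had 1 library and the labels give no replicate numbers. The same-rule comparison with the library labelled preSC_CracdKO could not be made, since 1 cell met the rule there. The 22 Mycn-high cells and 115 Pvt1-high cells limit what those comparisons can resolve. Replicate variation between tumours was not measured.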
